A study of Mus musculus with 24 samples.

Results

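The response of MIN6 cells carrying the control GFP plasmid to 3 h of thapsigargin was measured in 8 of the 24 libraries of the series. The other libraries hold cells given thapsigargin for 1 h, and cells with a plasmid for EIF2A fused to GFP. MIN6 is a mouse insulinoma line of pancreatic beta cells that makes and secretes insulin, here grown at 22.2 mM glucose. The 4 libraries at 3 h came from cells treated with 1 µM thapsigargin, and the 4 libraries written here as 0 h from cells given the vehicle DMSO. All 8 are labelled as carrying the GFP plasmid, the control shared by both groups. EIF2A is a translation initiation factor that is not part of the eIF2 complex. No vehicle sample is labelled 3 h, so the drug and the hours in culture cannot be told apart. The members were the columns named for the GFP control at 0 and 3 h in the deposited count table, and each 3 h library was paired with the 0 h library of the same replicate number. Nothing in the labels ties a replicate to its own culture, so p-values measure only the spread between these libraries, which may be technical. That spread was narrow among replicates 2 to 4, as given below.

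Thapsigargin inhibits SERCA, the pump that fills the endoplasmic reticulum (ER) with calcium, and the ER is where insulin is folded. Loss of ER calcium leads to misfolded protein, and the cell answers through the unfolded protein response. One arm, the kinase PERK, phosphorylates eIF2α, lowers general translation and favours translation of the transcription factor ATF4, which induces CHOP (gene Ddit3), ATF3 and genes of amino acid supply. The other arms, IRE1 with its target XBP1 and the factor ATF6, are known to induce ER chaperones and the machinery of ER-associated degradation. Beta cells carry a heavy load of secretory protein and are a common setting for the study of this response.

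Total counts were 17.4 to 22.2 M per library at 0 h and 16.7 to 19.7 M at 3 h, and values are given as CPM, the counts of a gene per M counts of its library after TMM scaling, always in the order of replicates 1 to 4. Both libraries of replicate 1 stood apart from the other 6. Eif2a itself, the gene the other plasmid carries, was at 280.2, 82.2, 80.9 and 81.8 CPM at 0 h and 374, 105, 102 and 94.3 CPM at 3 h. The replicate 1 libraries labelled GFP were therefore high in Eif2a, against their label. The first principal component, with 60.4% of the variance, placed replicate 1 at -75.2 and -67.9 and the other 6 libraries at 20.9 to 26.8. The second, with 32.1%, separated 3 h from 0 h in all 4 replicates. Each call was therefore checked in replicates 2 to 4 alone. A gene that was called in all 8 libraries and again, in the same direction, in the 6 libraries of replicates 2 to 4 is said to have held. These 6 libraries are part of the 8, so the check is not independent. It asks whether a call needs replicate 1, and is no separate support for the call. Which plasmid the 2 libraries of replicate 1 carried cannot be told from the counts. Pairs of libraries of the same time were compared by chi-squared over its degrees of freedom, near 1 when only counting noise separates them. Among replicates 2 to 4 it was 1.32, 1.62 and 1.96 for vehicle, and 2.42, 5.48 and 10.1 for thapsigargin. Pairs with replicate 1 gave 67.4 to 75. Vehicle replicates 2 to 4 thus differed by little more than counting noise, and p-values rest in part on that narrow spread. Whether these replicates were separate cultures was not tested.

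After 3 h of thapsigargin a large share of the transcriptome differed from vehicle, with small changes for most genes and changes of 2-fold or more for a minority. Of 13368 genes tested, 4473 rose (33.5%) and 4693 fell (35.1%) at an adjusted p under 0.05 in edgeR's quasi-likelihood test with the replicate as a block, 9166 genes in all (68.6%). Counts in the gene lists below are to be set beside these shares. The median absolute log2 fold change over all genes tested was 0.32. Changes of at least 2-fold were called for 498 genes that rose (3.73%) and 204 that fell (1.53%). In replicates 2 to 4, 4393 of the rises (32.9% of genes tested) and 4484 of the falls (33.5%) held, together 96.8% of all calls. At 2-fold or more, 497 rises (3.72%) and 202 falls (1.51%) held. The 3 genes of that size that did not hold were Rn45s, which was not called in replicates 2 to 4, and Apoc3 and Rilp, which did not pass the filter on low counts there. No called gene had the opposite sign in replicates 2 to 4. All called genes named below by the rule for named genes held. In the gene lists below every call held, except for 1 rise each among tRNA synthetases, NF-kB genes, proteasome genes and beta cell transcription factors, and 1 fall each among ER chaperones, ER-associated degradation, COPII and COPI traffic, ER calcium handling, DNA replication, cytosolic ribosomal proteins, NRF2 genes and beta cell transcription factors. Without the replicate block 2939 genes rose (22.0%) and 2687 fell (20.1%). Scaling by library totals gave 5782 rises and 3312 falls, so the share of rises among calls was 63.6% against 48.8% with TMM, and it moved the median over all genes from -0.01 to 0.115. Levels of all 4 libraries at 3 h lay above all 4 at 0 h for 2836 genes (21.2%), and below them for 2549 (19.1%).

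Among genes with large changes, replicate 1 mostly moved the same way as the others but less far. Of the 699 genes that held at 2-fold or more, 675 changed with the same sign in replicate 1. Their median absolute log2 change was 0.90 in replicate 1 and 1.20, 1.20 and 1.18 in replicates 2, 3 and 4. These genes had to be called again in replicates 2 to 4. That choice favours large changes there, so the medians are a description and no test. Over 10977 genes at 5 CPM or more on average, Pearson's r of the changes was 0.87 to 0.88 between replicate 1 and each of the others and 0.94 to 0.97 among replicates 2 to 4. These correlations are across genes, which are not independent replicates, and are given as a description.

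**Figure D1:**
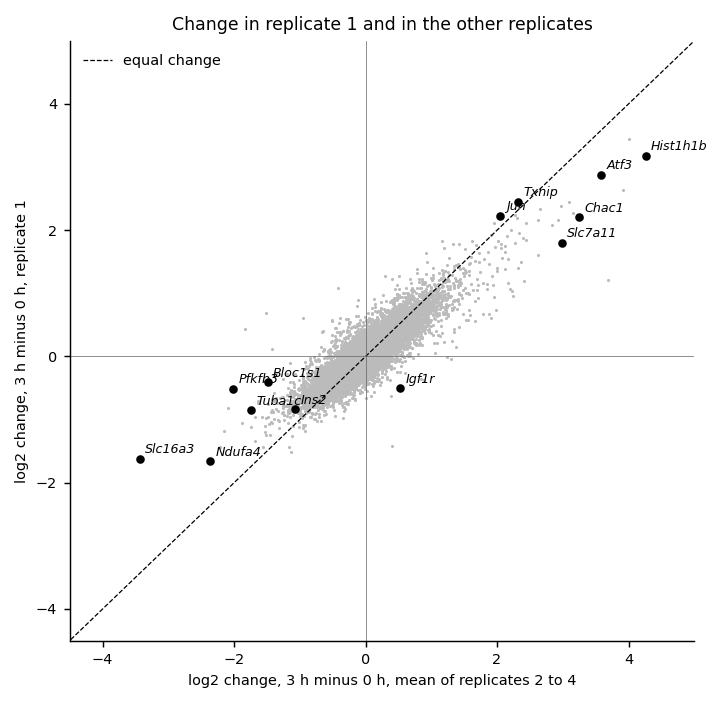
Log2 change from 0 h to 3 h (pseudocount 0.5 CPM) of each gene at 5 CPM or more on average, in replicate 1 (vertical axis) against the mean of replicates 2 to 4 (horizontal axis). The dashed line marks equal change and black points are labelled genes. Most genes far from 0 lie nearer to 0 in replicate 1 than on the dashed line, for example Slc16a3, Pfkfb3 and Slc7a11, while Jun and Txnip lie slightly above it.

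Among transcription factors of the stress response, 11 of the 17 tested members rose and 0 fell, with a median log2 fold change of 0.64 against -0.01 over all genes tested. Atf3, a stress-induced repressor and activator of the CREB family, was at 31.7, 8.49, 10.0 and 10.4 CPM at 0 h and 236, 117, 121 and 123 CPM at 3 h. Replicate 1 was the highest library of both groups, and no 3 h library overlapped a 0 h library. The log2 fold change was 3.41 ± 0.16 (± its standard error, as for all fold changes here; adjusted p = 7.21e-06), a 10.6-fold rise. Ddit3, which encodes the pro-apoptotic factor CHOP, stood at 88.8, 58.0, 57.1 and 60.2 CPM at 0 h and 301, 249, 251 and 269 CPM at 3 h. It rose by 2.04 ± 0.06 on the log2 scale (adjusted p = 1.68e-11), and every 3 h library lay above every 0 h library. Atf4, whose protein is mainly controlled through its translation, rose less at the RNA level, by 0.81 ± 0.06. Its libraries held 659, 566, 570.0 and 566 CPM at 0 h and 1006, 1038, 1019 and 1057 CPM at 3 h. Nfe2l1, a factor known for inducing proteasome genes, rose by 1.19 ± 0.06, and Nupr1, a small stress-induced chromatin protein, by 0.64 ± 0.05 (adjusted p = 0.0705 without the replicate block). Xbp1, the target of IRE1, was at 209.9, 259, 258 and 263 CPM at 0 h and 299, 419, 422 and 461 CPM at 3 h and rose by 0.68 ± 0.05. Gene counts do not separate its spliced from its unspliced RNA.

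Of the stress sensors and eIF2 kinases and phosphatases, 10 of the 17 tested members rose and 4 fell (7 rose and 2 fell without the replicate block, and 12 rose and 1 fell under library totals). The largest change was that of Ppp1r15a, or GADD34, which directs phosphatase to eIF2α and so ends the translational block. It was at 27.8, 26.3, 26.3 and 25.1 CPM at 0 h and 88.1, 92.1, 91.6 and 102 CPM at 3 h, a rise of 1.82 ± 0.06 (adjusted p = 7.91e-12) with the libraries of each group close together. Ern1, which encodes IRE1α, was at 23.2, 46.9, 47.7 and 48.6 CPM at 0 h and 45.1, 88.1, 90.8 and 92.0 CPM at 3 h, with the lower level of both groups in replicate 1. Its log2 fold change was 0.93 ± 0.05. Eif2ak3, which encodes PERK, rose by 0.41 ± 0.05 (adjusted p = 0.149 without the block). Nck1, an adaptor that binds PERK and eIF2, rose by 0.86 ± 0.05. Dnajc3, an inhibitor of PERK known as p58IPK, fell by 0.22 ± 0.05 (adjusted p = 0.548 without the block), and Eif2ak2, the kinase PKR, fell by 0.56 ± 0.07.

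Most effectors of ATF4 and CHOP rose. Here 23 of the 29 tested members rose and 4 fell (17 rose and 1 fell without the replicate block), 14 of the rises were 2-fold or more, and the median was 0.90. The 23 rises and 4 falls all held in replicates 2 to 4. Chac1, a glutathione-degrading enzyme, was at 87.9, 49.5, 48.6 and 50.5 CPM at 0 h and 407, 452, 464 and 514 CPM at 3 h. Replicate 1 was the highest library at 0 h and the lowest at 3 h. The log2 fold change was 3.00 ± 0.26 (adjusted p = 0.00135) in all libraries and 3.28 ± 0.05 in replicates 2 to 4. Trib3, a pseudokinase that restrains AKT and ATF4 itself, was at 68.5, 24, 24.7 and 23.9 CPM at 0 h and 315, 229, 240.2 and 258 CPM at 3 h and rose by 3.01 ± 0.28. Txnip, which encodes a thioredoxin-binding protein linked to beta cell death, was at 24.4, 41.9, 39.8 and 41.0 CPM at 0 h and 136, 208, 206 and 206 CPM at 3 h. Its groups were far apart in every replicate, with a rise of 2.37 ± 0.05 (adjusted p = 1.20e-13). Bbc3, or PUMA, a BH3-only protein that promotes apoptosis, rose by 1.58 ± 0.06. Ddit4, an inhibitor of mTORC1 signalling, rose by 0.59 ± 0.05, and Arrdc3, an arrestin-like relative of Txnip, by 0.87 ± 0.06. Against the majority, Mknk2, a kinase of the translation factor eIF4E, fell by 0.63 ± 0.05 and Ero1l, an ER oxidase that is also a hypoxia gene, by 0.34 ± 0.06 (adjusted p = 0.556 without the block).

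Most genes of amino acid supply rose. For amino acid synthesis and one-carbon metabolism, 17 of the 20 tested members rose and 0 fell, with a median of 0.85. Aldh18a1, an enzyme of proline synthesis, stood at 95.6, 99.6, 98.3 and 99.3 CPM at 0 h and 180.1, 254, 263 and 273 CPM at 3 h, a rise of 1.29 ± 0.08. Phgdh, the first enzyme of serine synthesis, was at 48.5, 46.9, 46.5 and 46.7 CPM at 0 h and 74.2, 105, 109 and 113 CPM at 3 h. Its 0 h levels were alike in all replicates and its 3 h level was lowest in replicate 1, with a log2 fold change of 1.08 ± 0.11. Bcat1, an aminotransferase of branched-chain amino acids, was near 0 in both replicate 1 libraries (0.379 and 0.796 CPM) and rose by 1.12 ± 0.05 in replicates 2 to 4. For the cytosolic tRNA synthetases, 17 of the 20 tested members rose and 0 fell, with a median of 0.61 and no member below -0.01. Tars, the synthetase for threonine, rose by 1.09 ± 0.07 and Yars, that for tyrosine, by 0.82 ± 0.06. Among amino acid transporters, 10 of the 16 tested members rose and 5 fell (9 rose and 2 fell without the replicate block). Slc7a11, the cystine importer of system xc-, was at 8.85, 5.57, 5.32 and 5.76 CPM at 0 h and 32.0, 50.6, 48.1 and 43.4 CPM at 3 h. Its 3 h level was lowest in replicate 1 and its log2 fold change was 2.79 ± 0.25 (adjusted p = 5.44e-04). Slc3a2, the shared heavy chain of several transporters, was at 172, 189.8, 195 and 196 CPM at 0 h and 514, 582, 601 and 589 CPM at 3 h, a rise of 1.60 ± 0.05. Its partner Slc7a5 rose by 1.01 ± 0.07. The falls included Slc7a2, a carrier of cationic amino acids, at -0.78, and Slc7a8, a carrier of neutral amino acids, at -0.52 (adjusted p = 0.223 without the block). Slc38a1 fell by 0.65 ± 0.05 in replicates 2 to 4, and was at 0.695 and 1.08 CPM in replicate 1.

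Among ER chaperones and folding enzymes, 10 of the 29 tested members rose and 11 fell, shares close to the 33.5% and 35.1% of all genes tested. The median was -0.04, and 3 rose and 8 fell without the replicate block. Hspa5, or BiP, the main ER chaperone and a standard marker of ER stress, was at 1408, 1100, 1056 and 1063 CPM at 0 h and 1571, 1338, 1356 and 1358 CPM at 3 h. Every 3 h library lay above its paired 0 h library, but the 0 h level of replicate 1 was above the 3 h levels of replicates 2 to 4. The log2 fold change was 0.29 ± 0.05 (adjusted p = 1.65e-04), and it was not called without the replicate block (adjusted p = 0.071). Hsp90b1, or GRP94, the HSP90 of the ER, was at 1408, 1304, 1262 and 1230 CPM at 0 h and 1889, 1946, 1902 and 1729 CPM at 3 h and rose by 0.52 ± 0.05. Dnajb9, a BiP co-chaperone and target of XBP1, rose by 0.27 ± 0.07 (adjusted p = 0.0639 without the block), and in replicate 1 it was at 95.9 CPM at both times. Cdnf, a secreted relative of the ER stress protein MANF, had the highest log2 fold change of the list, 1.28 ± 0.22, at 1.20 ± 0.407 CPM (SD, n = 4) at 0 h. The members that fell included Ppib, a prolyl isomerase, by 0.64 ± 0.05, Txndc5, a disulfide isomerase, by 0.55 ± 0.05, Fkbp2, another prolyl isomerase, by 0.50 ± 0.05, and Dnajc10, a reductase of misfolded protein, by 0.44 ± 0.04.

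In ER-associated degradation, 9 of the 26 tested members rose and 10 fell, also close to the shares over all genes, with a median of -0.03. Herpud1, which helps assemble the retrotranslocation complex, was at 156, 147, 150.4 and 146 CPM at 0 h and 379.9, 416, 408 and 436 CPM at 3 h. The 4 libraries of each group were close to each other and the rise was 1.45 ± 0.05 (adjusted p = 2.10e-11). Edem1, a lectin-like protein that marks misfolded glycoproteins and is known as an XBP1 target, was at 179, 199, 192 and 197 CPM at 0 h and 111, 112, 107 and 109.9 CPM at 3 h. It fell by 0.80 ± 0.05 (adjusted p = 2.25e-09), with all 3 h libraries below all 0 h libraries. Its relatives Edem2 and Edem3 fell by 0.47 ± 0.05 and 0.55 ± 0.05, and Rnf5, an ER ubiquitin ligase, by 0.78 ± 0.05. Among genes of the translocon, signal peptidase and N-glycosylation, 7 of the 34 tested members rose and 23 fell, with a median of -0.32 (4 rose and 19 fell without the replicate block). Dad1, a subunit of oligosaccharyltransferase, changed by -0.92 ± 0.05, Spcs3, of signal peptidase, by -0.87 ± 0.05, and Sec61b, of the translocon, by -0.82 ± 0.05. For COPII and COPI traffic, 11 of the 34 tested members rose and 16 fell (5 rose and 13 fell without the replicate block). The share of rises was close to that over all genes. The falls included Trappc1, of the TRAPP tethering complex, at -1.45, and the retrieval receptors Kdelr2 at -0.75 and Kdelr1 at -0.62. Under scaling by library totals, with a median of 0.115 over all genes, the medians of the chaperone, degradation and traffic lists were 0.09, 0.09 and 0.02, and rises outnumbered falls in each: 14 rose and 9 fell, 13 rose and 9 fell and 14 rose and 11 fell.

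Bloc1s1, a lysosome-positioning gene whose RNA is the best known substrate of IRE1-dependent decay, was at 22.8, 28.2, 32.0 and 29.5 CPM at 0 h and 17.1, 9.79, 9.95 and 11.2 CPM at 3 h. The fall was smaller in replicate 1, with a log2 fold change of -1.25 ± 0.24 (adjusted p = 0.00775) and -1.52 ± 0.08 without replicate 1. The list of such substrates had 3 tested members of 6, of which 2 fell (1 without the block) and 0 rose. Among genes of ER calcium handling, 3 of the 17 tested members rose and 8 fell (2 rose and 4 fell without the replicate block, and 5 rose and 6 fell under library totals). Atp2a3, which encodes SERCA3, one of the pumps that thapsigargin inhibits, was at 1101, 1084, 1139 and 1174 CPM at 0 h and 742, 584, 624 and 682 CPM at 3 h and fell by 0.78 ± 0.06. Stim2, a sensor of ER calcium, fell by 0.46 ± 0.05, and Orai1, a channel that STIM proteins open, rose by 0.34 ± 0.10, a call that was lost without replicate 3 or replicate 4.

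**Figure D2:**
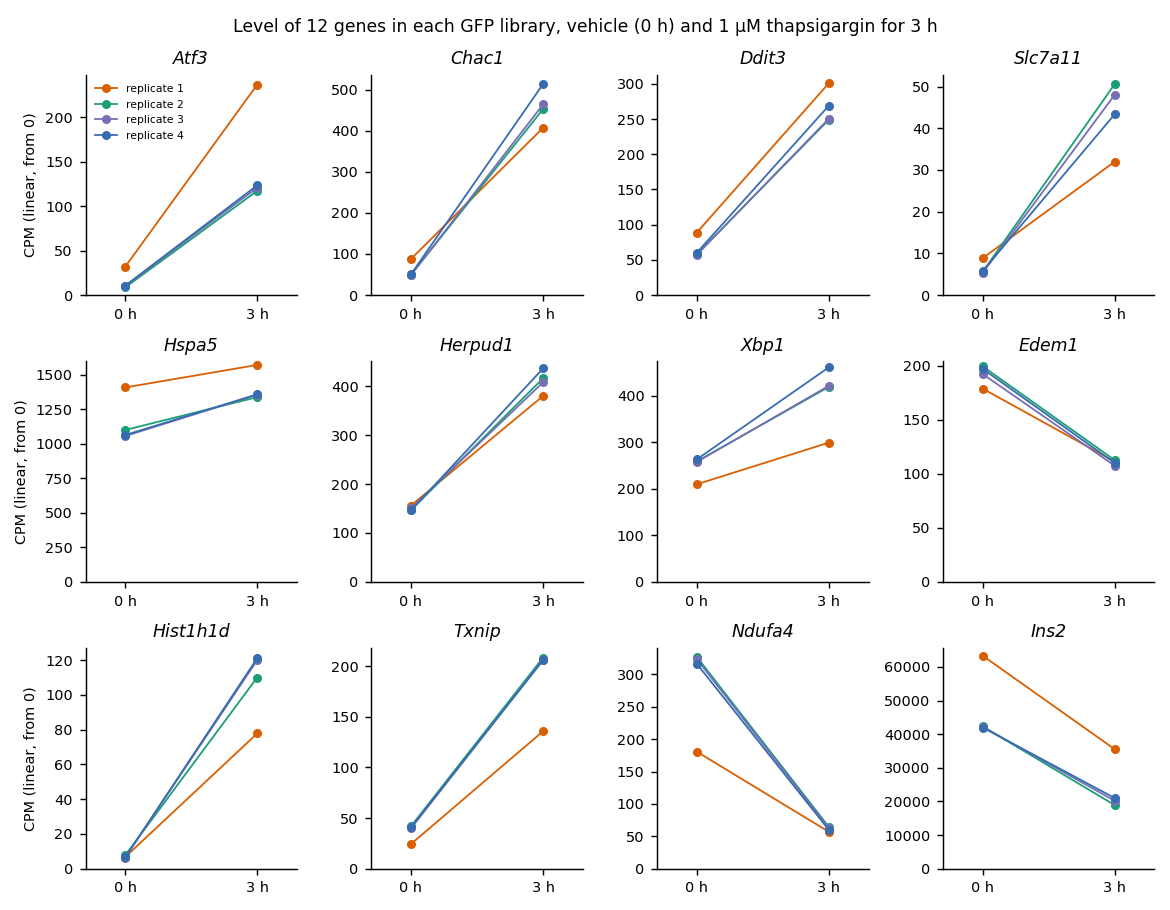
Level in CPM (linear axis from 0) of 12 genes in each GFP library at 0 h and 3 h, with a line joining the 2 libraries of each replicate and 1 colour per replicate. Atf3, Chac1, Ddit3 and Slc7a11 rise steeply in all 4 replicates, Hspa5 rises little, Edem1 falls, and replicate 1 (orange) starts or ends away from the other lines for most of the genes.

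Promoter sequences are shown because targets of ATF4 and ER chaperones are each known for a motif of their own. Windows from RefSeq on GRCm38.p6, 250 bases before to 50 after each annotated start, were searched on both strands for TGATGCAA, here called CARE, the composite site of C/EBP and ATF4, and for ERSE, the ER stress element of ATF6 and XBP1, which is CCAAT, 9 bases of any kind and CCACG. Of all 32851 windows 0.895% held CARE and 0.119% held ERSE. A window was found for 10677 of the 13368 tested genes, under 80% of them, so the share of changed genes that hold a motif was not compared and only the genes that hold one are described. CARE was in a window of 78 tested genes, of which 40 rose and 20 fell, 17 rose 2-fold or more and none fell 2-fold or more, with a median log2 fold change of 0.22. Over all 10677 genes with a window, 33.9% rose, 35.0% fell, 3.72% rose 2-fold or more, and the median was -0.01. ERSE was in a window of 18 tested genes, of which 8 rose and 4 fell, none by 2-fold, with a median of 0.03. TGACGTCA, the cyclic AMP response element, was in a window of 407 tested genes, of which 163 rose and 109 fell. A match is a string of letters and not a shown binding site.

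The 100 bases around the match, 5′ to 3′ on the strand of the gene, are given for the 4 members of the 39 pathway lists with CARE that had the highest log2 fold change and the 2 that had the lowest, with the match in capitals. TTGCATCA is the same motif on the other strand. Atf3, Chac1, Slc7a11 and Jdp2, a partner of ATF3, changed by 3.41, 3.00, 2.79 and 2.19, whereas Avil, an actin-binding protein, and Psmd13, a subunit of the proteasome's regulatory particle, changed by -0.28 and -0.45 with the same letters in their windows. The falls of Avil and Psmd13 held in replicates 2 to 4. Slc7a11 has a match on each strand.
Atf3 (chr1:191183390-191183489, minus strand): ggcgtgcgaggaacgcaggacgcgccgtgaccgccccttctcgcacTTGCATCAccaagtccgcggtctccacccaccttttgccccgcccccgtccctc
Chac1 (chr2:119351003-119351102, plus strand): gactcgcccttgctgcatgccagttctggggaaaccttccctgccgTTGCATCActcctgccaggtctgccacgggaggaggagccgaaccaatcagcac
Slc7a11 (chr3:50443617-50443716, minus strand): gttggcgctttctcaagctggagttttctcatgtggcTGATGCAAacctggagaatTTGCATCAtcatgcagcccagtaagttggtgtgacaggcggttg
Jdp2 (chr12:85599337-85599436, plus strand): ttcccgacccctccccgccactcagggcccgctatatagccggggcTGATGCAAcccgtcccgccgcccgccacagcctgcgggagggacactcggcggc
Avil (chr10:127000646-127000745, plus strand): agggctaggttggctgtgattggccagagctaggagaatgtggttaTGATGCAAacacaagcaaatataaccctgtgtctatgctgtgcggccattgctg
Psmd13 (chr7:140882144-140882243, plus strand): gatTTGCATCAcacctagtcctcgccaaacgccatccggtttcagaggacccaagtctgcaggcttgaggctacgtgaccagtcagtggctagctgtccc

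For ERSE the same stretches are given for the 2 highest and the 2 lowest members of the lists, and a longer one of 144 bases for Hsp90b1, which has a match on each strand. Hsp90b1 and Hspa5 changed by 0.52 and 0.29, and Derl3, a channel-like protein of ER-associated degradation, and Ero1lb, an ER oxidase of beta cells, by -0.26 and -0.33. The fall of Derl3 did not hold in replicates 2 to 4.
Hsp90b1 (chr10:86705523-86705666, minus strand): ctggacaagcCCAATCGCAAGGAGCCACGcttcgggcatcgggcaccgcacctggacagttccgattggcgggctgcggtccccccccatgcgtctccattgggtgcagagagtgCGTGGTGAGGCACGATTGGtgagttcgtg
Hspa5 (chr2:34771984-34772083, plus strand): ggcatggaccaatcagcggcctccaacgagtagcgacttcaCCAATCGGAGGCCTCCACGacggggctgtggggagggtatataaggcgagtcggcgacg
Derl3 (chr10:75893201-75893300, plus strand): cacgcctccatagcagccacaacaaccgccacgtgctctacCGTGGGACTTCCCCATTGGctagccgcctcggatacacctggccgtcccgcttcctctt
Ero1lb (chr13:12565641-12565740, plus strand): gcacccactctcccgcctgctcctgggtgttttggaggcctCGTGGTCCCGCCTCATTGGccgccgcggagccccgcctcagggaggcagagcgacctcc

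Histone genes were 7 of the 12 genes with the highest log2 fold changes among those that held at 5 CPM or more and whose groups did not overlap. Symbols of the form GmN or ending in Rik were left out of that ranking. Replication-dependent histone genes make the histones of newly copied DNA, and their mature transcripts normally end in a stem-loop and carry no poly(A) tail, while these libraries were made from polyA RNA. Of these replication-dependent genes, 47 of the 49 tested members rose and 1 fell, 39 of the rises were 2-fold or more, and the median was 1.82. All 47 rises held in replicates 2 to 4, where the median was 1.98, and in replicate 1 the median change was 1.27. Members of the family are near-identical copies, so reads may have been split or lost between them in a way that cannot be checked in gene counts. The 43 tested members on chromosome 13, the site of the Hist1 cluster, included 42 of the rises. Hist1h1b, a linker histone, was at 2.78, 1.62, 1.94 and 2.12 CPM at 0 h and 29.2, 43.9, 45.1 and 46.9 CPM at 3 h, a 19.8-fold rise with a log2 fold change of 4.31 ± 0.16 (adjusted p = 4.65e-09). Hist1h1d, another linker histone, was at 6.70, 7.65, 6.39 and 6.48 CPM at 0 h and 77.8, 110.0, 120.0 and 121 CPM at 3 h. Its 3 h level was lowest in replicate 1 and far above every 0 h library, with a log2 fold change of 3.97 ± 0.10. Hist1h1c, a linker histone also made outside S phase, was at 152, 114, 124 and 123 CPM at 0 h and 648, 792, 875 and 916 CPM at 3 h and rose by 2.65 ± 0.16. Hist3h2a and Hist1h2ac, of the H2A family, rose by 2.76 ± 0.16 and 3.54 ± 0.17. The 1 fall was that of Hist2h2bb, at 1.12 ± 0.0756 CPM at 0 h (SD, n = 4), which was not called without the block (adjusted p = 0.0567) or without replicate 2. Of the 66 listed members, 9 had no count in any of the 8 libraries.

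Genes of DNA replication rose by smaller amounts. In that list, 24 of the 37 tested members rose and 3 fell, with a median of 0.35. Cdc6, which loads the replicative helicase, was at 45.9, 52.4, 57.6 and 55.1 CPM at 0 h and 91.5, 128, 127 and 127 CPM at 3 h and rose by 1.16 ± 0.05. Cdt1, its partner in licensing, rose by 0.96 ± 0.05, Mcm7, a helicase subunit, by 0.73 ± 0.05, and Slbp, which binds the histone stem-loop, by 0.63 ± 0.05. Among mitotic genes, 9 of the 28 tested members rose and 10 fell, close to the shares over all genes, with a median of 0.01 (15 rose and 9 fell under library totals). Cenpf, a kinetochore protein, fell by 0.71 ± 0.05 and Birc5, or survivin, by 0.64 ± 0.06, while Dlgap5, a spindle protein, rose by 0.84 ± 0.05.

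Immediate early genes, which respond to many stimuli without new protein synthesis, were mostly higher at 3 h. Of these, 28 of the 35 tested members rose and 2 fell, 17 of the rises were 2-fold or more, and the median was 0.99. Jun, a subunit of AP-1, was at 221, 103, 106 and 102 CPM at 0 h and 1039, 416, 438 and 443 CPM at 3 h. Replicate 1 was more than 2 times each of the others in both groups, and the log2 fold change was 2.10 ± 0.05 (adjusted p = 5.57e-13). Klf10, a zinc finger repressor, rose by 1.92 ± 0.06, Ier2 by 1.49 ± 0.05, Gem, a small GTPase that limits calcium channels, by 1.49 ± 0.06, and Myc by 1.52 ± 0.08. Egr1, another immediate early factor, was at 38, 106, 106 and 106 CPM at 0 h and 40.1, 116, 105 and 107 CPM at 3 h, a log2 fold change of 0.05 ± 0.05 (adjusted p = 0.332) that was called as a rise under library totals. Fos, the partner of Jun, rose by 0.69 ± 0.06 (adjusted p = 0.299 without the block), and its levels in replicate 1 were 10.4 and 15.2 CPM against 35.7 to 36.4 and 57.8 to 61.5 CPM in the others. Among MAP kinase phosphatases, 6 of the 9 tested members rose and 1 fell (3 rose and 1 fell without the replicate block), with Dusp16 and Dusp8, which act on JNK, at 1.95 ± 0.15 and 1.5 ± 0.08.

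NF-kB subunits and targets were called in 1 direction, as 14 of the 16 tested members rose and 0 fell (9 rose and 0 fell without the replicate block). Nfkb2, a precursor subunit, rose by 1.00 ± 0.07, Rela by 0.69 ± 0.05, and Nfkbia, the inhibitor that NF-kB itself induces, by 0.91 ± 0.06. Over all genes tested 33.5% rose and 35.1% fell. In the BCL2 family, 3 of the 16 tested members rose and 6 fell, the falls close to that share (3 rose and 3 fell without the replicate block, and 3 rose and 2 fell under library totals). The rises were those of the BH3-only genes Hrk and Bbc3 and of Mcl1, a protector from apoptosis, at 2.49 ± 0.30, 1.58 ± 0.06 and 0.27 ± 0.05. Bcl2, another protector, was at 17.3, 14.5, 14.1 and 13.8 CPM at 0 h and 14.4, 11.3, 13.5 and 10.2 CPM at 3 h and fell by 0.28 ± 0.08 (adjusted p = 0.147 without the block), a call also lost without replicate 2 or replicate 4. Bax and Bok, effectors of apoptosis, fell by 0.42 ± 0.04 and 0.62 ± 0.06. For p53 targets 11 of the 19 tested members rose and 5 fell (5 rose and 4 fell without the replicate block). Aen, a nuclease, rose by 0.73 ± 0.06, while Ccng1 and Zmat3, also known p53 targets, fell by 0.56 ± 0.05 and 0.55 ± 0.06. In the clock list 9 of the 18 tested members rose and 3 fell. Nfil3, a repressor in the output of the clock, was at 41.9, 27.4, 27.7 and 29.0 CPM at 0 h and 193, 134, 139 and 150.0 CPM at 3 h and rose by 2.29 ± 0.05, the clock repressors Ciart and Nr1d1 rose by 2.33 ± 0.07 and 2.04 ± 0.06, and Clock itself fell by 0.62 ± 0.05. Cytosolic heat shock genes showed no common direction, as 5 of the 22 tested members rose and 6 fell (3 rose and 1 fell without the replicate block, and 7 rose and 2 fell under library totals). No gene of that list changed 2-fold.

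Nuclear genes of the mitochondrial respiratory chain fell in most cases. In complex I, 2 of the 35 tested members rose and 30 fell, in complex II, 1 of the 4 tested members rose and 3 fell, in complex III, 2 of the 9 tested members rose and 7 fell, in complex IV, 0 of the 12 tested members rose and 12 fell, and in ATP synthase, 0 of the 18 tested members rose and 16 fell (2 rose and 16 fell under library totals). The medians were -0.50, -0.53, -0.38, -0.67 and -0.62. Ndufa4, a subunit of complex IV, was at 181, 327, 323 and 316 CPM at 0 h and 57.0, 64.4, 62.7 and 60.0 CPM at 3 h. The 0 h level of replicate 1 was the lowest of its group and still above all 3 h libraries. The log2 fold change was -2.20 ± 0.14 (adjusted p = 4.75e-05), a 4.60-fold fall. Uqcrh, the hinge protein of complex III, was at 285, 219, 222 and 218 CPM at 0 h and 135, 78.4, 74.9 and 84.9 CPM at 3 h and fell by 1.37 ± 0.07. Atp5k and Cox6b1, small subunits of ATP synthase and complex IV, fell by 1.14 ± 0.06 and 1.05 ± 0.06. The 5 members that rose were Sdha, the catalytic subunit of complex II, by 0.78 ± 0.05, the complex I core subunits Ndufs1 and Ndufv1 by 0.53 ± 0.05 and 0.24 ± 0.05, and the core proteins Uqcrc2 and Uqcrc1 by 0.30 ± 0.05 and 0.21 ± 0.05 (adjusted p = 0.0798 for Uqcrc1 without the block).

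Cytosolic ribosomal protein genes fell by small amounts, and genes that build the ribosome rose. For the ribosomal proteins, 1 of the 78 tested members rose and 71 fell, with a median of -0.40 and none by 2-fold. Rpl39, a small subunit of the exit tunnel, was at 131, 92.5, 91.5 and 97.1 CPM at 0 h and 85.5, 57.2, 56.1 and 55.0 CPM at 3 h and fell by 0.71 ± 0.05. For ribosome biogenesis, 27 of the 32 tested members rose and 2 fell, with a median of 0.44. Gnl3, or nucleostemin, was at 49.6, 53, 52.5 and 52.4 CPM at 0 h and 86.9, 115, 116 and 102 CPM at 3 h and rose by 1.01 ± 0.06, while Nop14 and Nop56, of the small subunit processome and the box C/D particles, rose by 1.00 ± 0.05 and 0.92 ± 0.06. Among hosts of small nucleolar RNAs, Snhg12, Snhg1, Snhg17 and Snhg5 rose by 2.18 ± 0.08, 2.10 ± 0.06, 2.00 ± 0.06 and 1.43 ± 0.05. Malat1, an abundant nuclear noncoding RNA of the same list, was at 1458, 1113, 1001 and 890.5 CPM at 0 h and 688, 612, 569 and 424 CPM at 3 h and fell by 0.96 ± 0.06. In that list 8 of the 19 tested members rose and 9 fell (8 rose and 7 fell under library totals). Of mitochondrial ribosomal proteins 21 of the 77 tested members rose and 37 fell (27 rose and 28 fell under library totals). Over all genes tested 33.5% rose and 35.1% fell. In the proteasome 7 of the 33 tested members rose and 17 fell (12 rose and 13 fell under library totals). Pomp, a chaperone of proteasome assembly, fell by 0.94 ± 0.05, and Psmd12 and Psmc2, of the regulatory particle, rose by 0.29 ± 0.05 and 0.26 ± 0.05.

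The gene with the largest fall of all named genes was Slc16a3, the lactate exporter MCT4, at 470.4, 168, 172 and 174 CPM at 0 h and 153, 13.6, 14.6 and 18.1 CPM at 3 h. Replicate 1 had the highest level of both groups, and its 3 h level was just below the 0 h levels of the others. The log2 fold change was -2.89 ± 0.49 (adjusted p = 0.0131) in all libraries and -3.46 ± 0.06 in replicates 2 to 4. It was not called without the block (adjusted p = 0.0643), nor when replicate 2 or replicate 3 was left out. In the list of hypoxia and glycolysis genes, 1 of the 33 tested members rose and 23 fell, with a median of -0.54, while 1 rose and 5 fell without the replicate block and 5 rose and 21 fell under library totals. The median change was -0.14 in replicate 1 and -0.68 in replicates 2 to 4. Pfkfb3, which makes the activator of phosphofructokinase, was at 55.6, 81.2, 78.3 and 74.5 CPM at 0 h and 38.9, 18.8, 18.6 and 19.4 CPM at 3 h. It fell by 1.65 ± 0.37 (adjusted p = 0.0262), a call that was also lost without replicate 2 or replicate 3. Ankrd37, a hypoxia-induced gene, fell by 1.94 ± 0.22, Pgam1, a glycolytic mutase, by 1.27 ± 0.11, and Egln1, an oxygen sensor that marks HIF for degradation, by 1.09 ± 0.08. Vegfa, an angiogenic factor induced by HIF and by ATF4, rose by 0.22 ± 0.05.

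Genes of NRF2, the regulator of antioxidant defence, and of glutathione were mostly lower, as 5 of the 28 tested members rose and 22 fell, with a median of -0.55 (2 rose and 18 fell without the replicate block). Gpx2, a glutathione peroxidase, was at 84.6, 89.7, 89.7 and 94.0 CPM at 0 h and 43.7, 46.1, 44.3 and 51.9 CPM at 3 h and fell by 0.95 ± 0.05. Ftl1, the light chain of ferritin, fell by 0.90 ± 0.05 and Gsr, glutathione reductase, by 0.61 ± 0.05. The rises included Slc7a11, already given, and Osgin1, an inhibitor of growth, at 1.04 ± 0.14. In cholesterol and fatty acid synthesis 17 of the 30 tested members rose and 5 fell (9 rose and 3 fell without the replicate block). Insig1, which retains the SREBP complex in the ER, was at 472, 247, 251 and 244 CPM at 0 h and 772, 460.0, 471 and 432 CPM at 3 h and rose by 0.83 ± 0.05. Hmgcs1, at the start of the mevalonate pathway, rose by 0.82 ± 0.05 (adjusted p = 0.102 without the block). Acly, which supplies cytosolic acetyl-CoA, fell by 0.47 ± 0.06.

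Insulin transcripts fell. Ins2 was at 63340, 42320, 42200 and 41990 CPM at 0 h and 35530, 18910, 20200 and 21020 CPM at 3 h. Every 3 h library was below every 0 h library, and replicate 1 was the highest of both groups. The log2 fold change was -1.01 ± 0.07 (adjusted p = 5.34e-09), a 2.02-fold fall, and Ins1 fell by 1.04 ± 0.07. Both genes are near-identical in their coding sequence, so reads may pass between them. The share of all counts that Ins2 took fell from 5.76% to 3.53% in replicate 1 and from 4.08 to 4.11% to 2.02 to 2.22% in replicates 2 to 4. Iapp, which encodes amylin, co-secreted with insulin, fell by 0.63 ± 0.06. Of hormones and granule genes 6 of the 30 tested members rose and 22 fell (2 rose and 15 fell without the replicate block). Resp18, a granule protein, fell by 0.61 ± 0.05 and Syt7, a calcium sensor of exocytosis, by 0.84 ± 0.07 (adjusted p = 0.102 without the block). Among genes of glucose sensing and receptors, 5 of the 22 tested members rose and 13 fell (0 rose and 8 fell without the replicate block, and 7 rose and 10 fell under library totals). G6pc2, a phosphatase that opposes glucokinase, was at 5268, 3524, 3520 and 3527 CPM at 0 h and 2699, 1186, 1138 and 1220 CPM at 3 h, a fall of 1.43 ± 0.11 (adjusted p = 4.43e-06). Slc2a2, the glucose transporter GLUT2, fell by 0.92 ± 0.07 (adjusted p = 0.216 without the block), and Tmem27, a membrane protein of beta cells, by 1.45 ± 0.06.

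Transcription factors of the beta cell went both ways, with 9 of 22 rising and 8 falling (5 rose and 2 fell without the replicate block, and 11 rose and 3 fell under library totals). The shares over all genes tested were 33.5% and 35.1%. Pax4 and Insm1, known from endocrine development, rose by 0.82 ± 0.09 and 0.70 ± 0.06. Nkx6-1 was at 301, 338, 332 and 332 CPM at 0 h and 233, 210.2, 225 and 265 CPM at 3 h and fell by 0.49 ± 0.06, and Nkx2-2 fell by 0.47 ± 0.05. Pdx1, an activator of the insulin gene, fell by 0.20 ± 0.05 (adjusted p = 0.129 without the block). Mafa, another activator of insulin, stood at 234, 351, 327 and 338 CPM at 0 h and 193, 308, 331 and 462 CPM at 3 h. It was lower at 3 h in replicates 1 and 2, close to its 0 h level in replicate 3 and higher in replicate 4, with a log2 fold change of 0.00 ± 0.12 (adjusted p = 0.985). Of genes that beta cells normally keep silent, 3 of the 13 tested members rose and 4 fell (1 rose and 1 fell without the replicate block, and 4 rose and 3 fell under library totals).

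**Figure D3:**
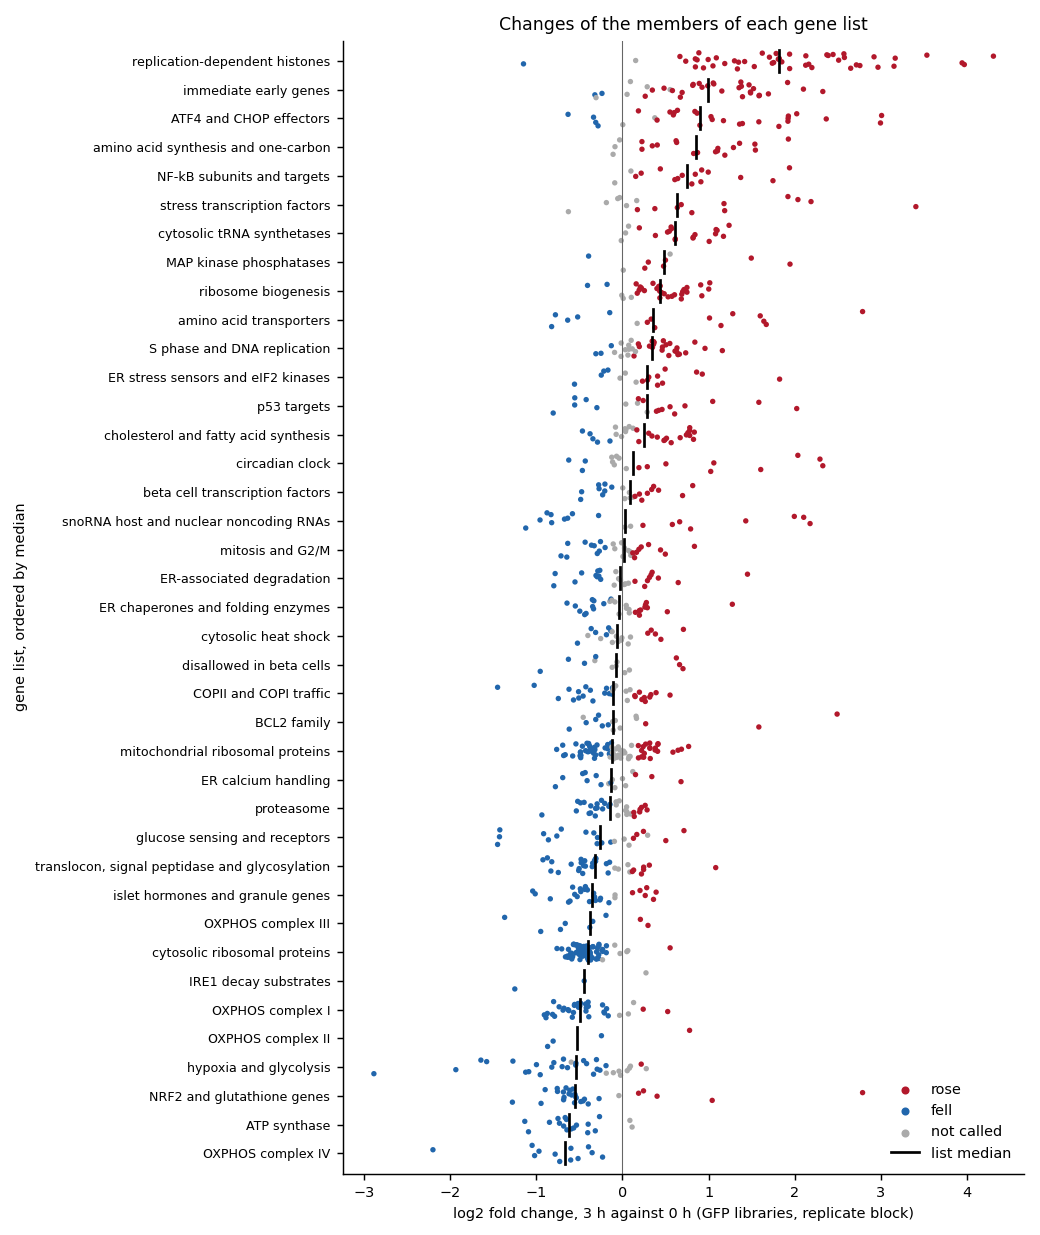
Log2 fold change at 3 h against 0 h of every tested member of the 39 pathway lists, ordered by list median (black bar). Members that rose are red, those that fell blue and those not called grey. Histones, immediate early genes and ATF4 and CHOP effectors lie at the top, complex IV, ATP synthase and NRF2 genes at the bottom, and ER chaperones and ER-associated degradation near 0 with members on both sides.

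Of the 12 genes named for the highest log2 fold changes, 7 were histones. The others were Atf3, Trib3, Chac1, Slc7a11 and the pseudogene Olfr1372-ps1, which stood at 1.64, 1.53, 1.48 and 0.95 CPM at 0 h and 4.43, 25.2, 21.9 and 21.1 CPM at 3 h. The 12 named for the lowest included 3 of the hypoxia and glycolysis list, Slc16a3, Ankrd37 and Pfkfb3, as well as Ndufa4. S100a11, a calcium-binding protein, was at 22.6, 37.9, 35.8 and 37.5 CPM at 0 h and 8.07, 7.94, 6.97 and 7.90 CPM at 3 h and fell by 2.10 ± 0.12. Tnfsf9, a ligand of the TNF family, fell by 1.77 ± 0.13, Mir124a-1hg, the host of a neuronal miRNA, by 1.63 ± 0.09, and Ffar3, a receptor of short-chain fatty acids, by 1.60 ± 0.12. Glrx, or glutaredoxin, Snn, Tuba1c, an alpha tubulin, and Igfbp5, a binding protein of insulin-like growth factors, fell by 1.60 ± 0.07, 1.56 ± 0.11, 1.53 ± 0.21 and 1.48 ± 0.14. In replicate 1 each of these genes moved the same way as in the others.

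The genes that changed most were shorter than the rest at the median, more so among falls, a description with no test. The median exonic length was 4435 bases over the tested genes with a length, 3744 over the genes that held as rises of 2-fold or more and 2647 over those that held as falls of 2-fold or more. Over all genes that held, it was 4801 for rises and 4078 for falls. With a length trend removed from each library, 4065 genes rose and 4748 fell of 12857.

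The label of the line was checked against islet markers. All 10 beta cell markers were tested, and 8 fell and none rose, with a summed level of 74370 to 100900 CPM at 0 h and 41670 to 65580 CPM at 3 h. Of the 5 tested alpha cell markers 1 rose and 2 fell. Gcg, the glucagon gene of alpha cells, was also present, at 283, 764, 732 and 718 CPM at 0 h and 182, 437, 426 and 439.7 CPM at 3 h. Delta, PP and epsilon markers summed to 6.26 to 7.48 CPM at 0 h and 5.03 to 6.40 CPM at 3 h with Hhex at 0, mesenchymal markers to 3.86 to 8.24 and 5.20 to 6.8 CPM, and endothelial markers to 2.25 to 3.26 and 1.92 to 3.81 CPM. Duct markers summed to 489 to 1272 CPM at 0 h and 544 to 1245 CPM at 3 h. Of these, Spp1 was far lower in replicate 1, with 218, 13855, 12319 and 11485 counts at 0 h. Acinar markers summed to at most 1.09 CPM in any library, with Amy2a5, Prss1 and Prss2 at 0. Some macrophage genes were near 0 at 0 h but not in every 3 h library. Csf1r had 0, 0, 2 and 5 counts at 0 h and 1, 4, 22 and 132 counts at 3 h, and C1qb had 0, 0, 1 and 0 counts at 0 h and 0, 0, 11 and 55 at 3 h. The 3 h library of replicate 4 was thus the highest in both. C1qa was the exception among the complement genes, at 39.0, 60.8, 65.7 and 64.3 CPM at 0 h and 20.2, 23.4, 23.8 and 34.0 CPM at 3 h. The summed level of the 9 macrophage markers was 36.8 to 70.1 CPM at 0 h and 20.7 to 55.1 CPM at 3 h. C1qa made up most of this sum in every library, so the sum does not show the course of Csf1r or C1qb. Without a block, replicates 2 to 4 gave 4708 rises and 4621 falls. They gave 4947 and 4870 once the 3 h library of replicate 4 was left out. The part of such cells in the results was not tested.

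The 1 h libraries of the same plasmid share their 0 h controls with the comparison, so their values are set beside it only. The 1 h values come from a fit of the 12 GFP libraries and the 3 h values from the fit of 8 libraries. Their scaling and standard errors are therefore not those of 1 fit. At 1 h the median log2 fold change was 0.91 for immediate early genes, 0.15 for ATF4 and CHOP effectors, 0.41 for histones, 0.20 for ER chaperones, -0.28 for complex IV and -0.04 for hormones and granule genes. Atf3 was at 1.48 ± 0.26 at 1 h and 3.41 ± 0.16 at 3 h, and Chac1 at 1.53 ± 0.25 and 3.00 ± 0.26. For Hspa5 the values were 0.45 ± 0.05 and 0.29 ± 0.05, for Egr1 0.62 ± 0.04 and 0.05 ± 0.05, and for Fos 0.94 ± 0.10 and 0.69 ± 0.06. Ins2 stood at -0.22 ± 0.05 at 1 h and -1.01 ± 0.07 at 3 h. The difference between 1 and 3 h itself was not tested.

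**Figure D4:**
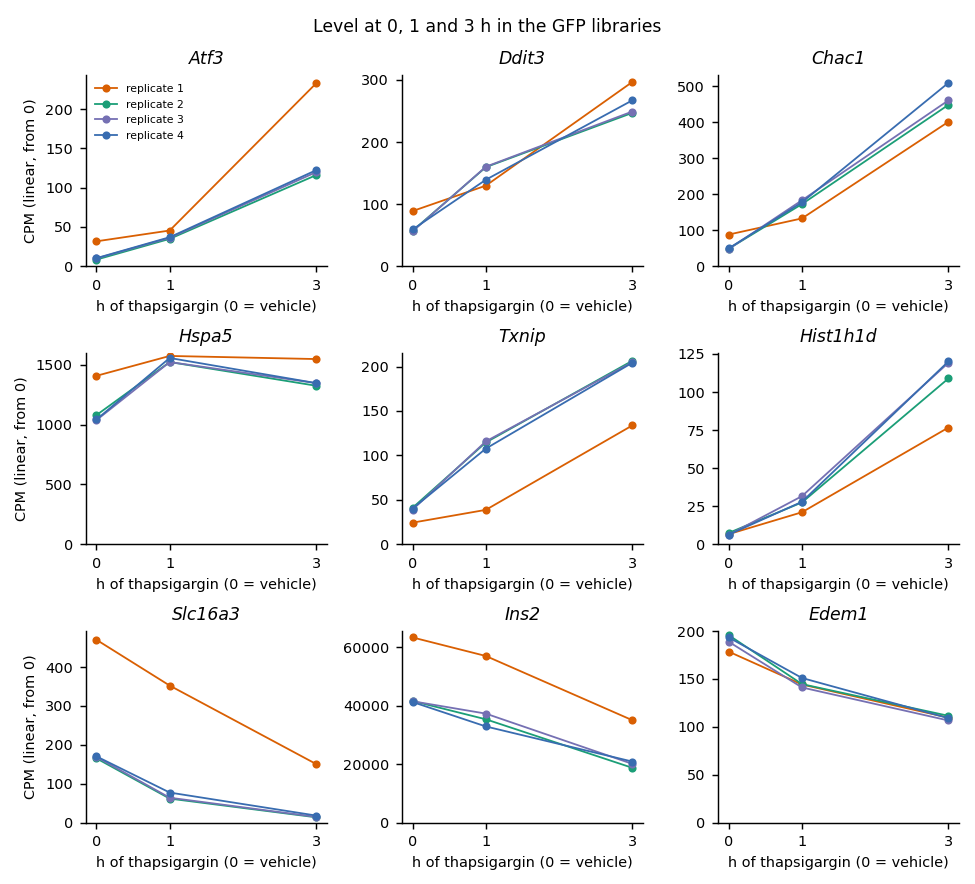
Level in CPM (linear axis from 0) of 9 genes in the GFP libraries after 0, 1 and 3 h, with lines joining libraries of 1 replicate number. Hspa5 is highest at 1 h in all 4 replicates, while Atf3, Chac1 and Hist1h1d go on rising to 3 h and Slc16a3, Ins2 and Edem1 go on falling.

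The same 3 h treatment of cells with the EIF2A plasmid shares no library with the GFP comparison and was fitted with it in 1 model. Of the 497 genes that held as 2-fold rises in GFP, 459 were also called as rises with EIF2A and none as a fall. Of the 202 that held as falls, 166 were called as falls and none as a rise. Over all 13646 genes of that model, 31.8% rose and 31.9% fell with EIF2A. In that model 771 genes changed 2-fold or more with GFP and 869 with EIF2A, and 551 did so in both and in the same direction, which is 71.5% of the first and 63.4% of the second. The test of the difference between responses called 4 of 13646 genes (0.0293%), all lower with EIF2A: Csf1r, Flrt3, Sparc and Ctss. No gene was called without replicate 4, whose GFP library at 3 h had the highest Csf1r count of the 8 GFP libraries, and 7 and 1 were called without replicates 2 and 3. Flrt3, a cell adhesion protein, was at 9.80, 6.22, 6.34 and 6.54 CPM at 0 h and 18.7, 19.1, 15.3 and 16.5 CPM at 3 h with GFP, a rise of 1.29 ± 0.10, while its change with EIF2A was 0.08 ± 0.12. Since Eif2a levels went against the labels in replicate 1, the same test was run on replicates 2 to 4, where 402 genes responded more positively with EIF2A (2.95%) and 636 more negatively (4.67%). There, 453 of the 497 rises were called as rises with EIF2A and 1 as a fall. Of the 200 falls tested, 162 were called as falls and 1 as a rise. Over all 13615 genes tested there, 33.0% rose and 33.5% fell with EIF2A. In replicates 2 to 4, 665 genes changed 2-fold or more the same way in both, 70.9% of 938 with GFP and 54.6% of 1219 with EIF2A. At 0 h the EIF2A libraries of these replicates held 10.5 to 14.8 M counts. In the count table, 17.2 to 17.9% of their reads were listed as having no feature. The GFP libraries held 18.4 to 22.2 M counts, with 12.4 to 13% of reads so listed. The plasmid, the cells that carried it and the state of the libraries therefore cannot be told apart.

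In replicates 2 to 4 the difference was called for 66 of the 270 named genes. Chac1 rose by 3.28 ± 0.05 with GFP, and its response with EIF2A was 0.63 ± 0.07 lower (adjusted p = 2.35e-05). Ddit3 and Hspa5 had responses 0.59 ± 0.08 and 0.34 ± 0.06 lower with EIF2A. For Atf3 the difference was -0.11 ± 0.10 (adjusted p = 0.569) and for Ins2 0.05 ± 0.08 (adjusted p = 0.803). Bloc1s1 fell by 1.52 ± 0.08 with GFP and changed by -0.38 with EIF2A, a difference of 1.13 ± 0.12 (adjusted p = 1.22e-05). Fos rose by 0.73 ± 0.05 with GFP and fell by 0.57 ± 0.13 with EIF2A (adjusted p of the difference = 5.39e-05). Egr1 was not called with GFP, at 0.06 ± 0.05, and fell by 1.09 ± 0.07 with EIF2A (adjusted p of the difference = 6.74e-07).

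**Figure D5:**
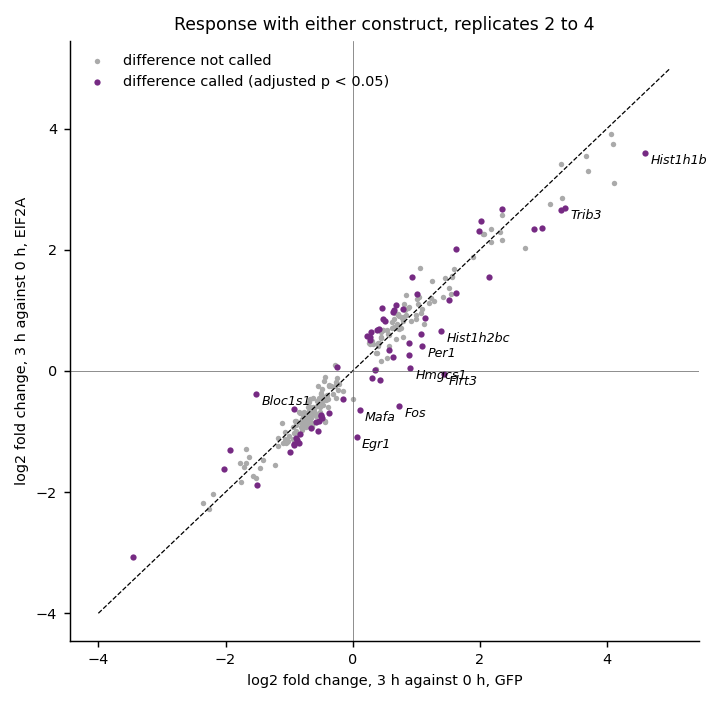
Log2 fold change at 3 h against 0 h in replicates 2 to 4, with GFP (horizontal) and with EIF2A (vertical), for the 265 named genes at 1 CPM or more on average in the EIF2A libraries. Purple points mark the 66 genes whose responses differed at an adjusted p under 0.05, and the dashed line marks equal response. Most points lie along the line, Bloc1s1 lies above it, and Fos, Egr1, Mafa and Flrt3 lie below it.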

How the data were processed

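Libraries were made from polyA RNA with a stranded mRNA kit, per the labels' protocols. Tools and build listed in the submitters' processing notes are STAR, bcl2fastq and mm10, without versions. The counting program, its annotation and its strand setting were not given in the sources consulted. The authors deposited 1 table of raw, unnormalized counts for 24421 genes. Its 2 lines that name no gene were left out. Reads listed there as having no feature made up 10.9 to 13.0% in the 8 libraries. Without the counting settings, where such reads lie cannot be told. Groups and replicate numbers came from the sample labels, and replicate 1 is column suffix 2.

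Counts were fitted in edgeR 4.0.16 (R 4.3.3) with TMM scaling, the default filter (minimum count 10, minimum total 15), robust quasi-likelihood dispersions and the replicate number as a block, on 8 libraries with 3 residual degrees of freedom. P-values were adjusted by Benjamini-Hochberg over 13368 genes. Each standard error was derived from the test, as the absolute log2 fold change over the square root of its F statistic, and is approximate. Deviations from the group means correlated at 0.912, 0.701, 0.697 and 0.685 between libraries of the same number, for replicates 1 to 4. Replicates 2 and 4 correlated slightly better with another number, at 0.721 and 0.699. The values thus set replicate 1 apart but cannot show how replicates 2 to 4 pair, and samples were paired by number. Within replicates 2 to 4 alone the same-number correlations were 0.0591, -0.0246 and 0.072, so the pairing is mainly that of replicate 1. The response with EIF2A was compared through an interaction in 1 model over 16 libraries. Positions and lengths came from GENCODE M21 (GRCm38, which is mm10), and 96.2% of tested genes had a length.

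Genes were named by rule: the 12 highest and 12 lowest changes that held, at 5 CPM or more and with no overlap of groups, in each list the 5 called members with the smallest p and 2 called against its majority, a fixed list of stress and beta cell genes, and the called genes with the smallest interaction p, 270 in all. Symbols of the form GmN or ending in Rik were left out of the highest and lowest changes. Outside this rule, Derl3, Ero1lb, Jdp2, Avil, Apoc3, Rilp, Rn45s, Sparc and Ctss, and the marker genes given as counts, were named after their values were seen. The members, the 47 gene lists and the motifs were chosen with earlier results of these data known, so list counts are descriptions. Alternatives were each replicate left out, no block, other sets of libraries, other scalings, no filter, DESeq2 1.42.0 and a length trend. The fit was also run on simulated counts in which few genes changed and libraries were drawn independently. That run cannot speak to scaling when most genes change, or to replicates that are not independent.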

Additional observations from a re-analysis of the deposited data

Results flagged for a closer look

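A value is listed here when it lies far from the other 3 of its group by Dixon's criterion, which chance alone meets in about 1 in 20 groups. Of the 270 named genes, 94 had a 0 h level and 79 a 3 h level of replicate 1 that stood apart in this way. The other levels listed were the 3 h levels of S100a11 in replicate 3 (6.97 CPM, the lowest) and, in replicate 4, of Dlgap5 (104.5 CPM, lowest), Nucb2 (112 CPM, lowest) and Ppib (166 CPM, highest).

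The log2 change of replicate 1 stood apart for 24 genes. Among genes that rose it was smaller than in the other replicates for Trib3 at 2.19, Chac1 at 2.20, Hist3h2a at 2.16, Hist1h1c at 2.09, Ddit3 at 1.76, Dusp16 at 1.38, Olfr1372-ps1 at 1.20, Nfe2l1 at 0.95, Mcm10 at 0.72, Slc7a5 at 0.69 and Mthfd1l at 0.46, and larger for Irs2 at 1.09. Among genes that fell it was closer to 0 for Ndufa4 at -1.66, S100a11 at -1.43, Igfbp5 at -0.96, G6pc2 at -0.96, Edem1 at -0.68, Ndufa5 at -0.59, Uqcrb at -0.54, Resp18 at -0.51 and Pfkfb3 at -0.51, and it was above 0 for Spp1 at 0.0814 and Slc38a1 at 0.40. The value of Ucn3, -0.66, rests on 0.379 CPM at 0 h and 0.0568 CPM at 3 h, both under the pseudocount of 0.5 CPM that sets it. The change of Trp53 stood apart in replicate 2, at 0.53. The response of Flrt3 differed between plasmids by -1.22, from the test of the difference itself.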

How the results depend on the processing

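No called gene among those named changed direction under any of the alternatives run. The counts of rises and falls of 4473 and 4693, and of 498 and 204 at 2-fold or more, ran from 4013 to 4828, 4101 to 4758, 457 to 614 and 187 to 284 when 1 replicate was left out. Without the replicate block they were 2939, 2687, 452 and 154, and 5625 of those 5626 calls were also made, in the same direction, with the block; 46 named genes were then no longer called. A fit of all 24 libraries without the block gave 2538 and 2005, and 64 named genes were no longer called. Scaling by library totals left 119 falls of 2-fold or more. DESeq2 gave 3941 and 4150. The alternatives that follow were chosen after seeing the data: a block on replicate 1 against the rest gave 4539 and 4760, and replicates 2 to 4 without the 3 h library of replicate 4 gave 4947 and 4870, with 661 and 345 at 2-fold or more. For the difference between plasmids, 0 genes were higher and 4 lower by edgeR (1028 at an unadjusted p under 0.05), with 0 to 402 and 0 to 636 when 1 replicate was left out, the highest of both without replicate 1, and 0 and 0 without the replicate block. The cause was not tested. Calls of Slc16a3 and Pfkfb3 were lost without replicate 2 or replicate 3, and that of Bcl2 without replicate 2 or replicate 4. Genes near 1 CPM rest on few counts, so their changes are imprecise.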
